A study of Mus musculus with 6 samples.

Results

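The Trav and Trbv genes, the variable segments of the alpha and beta chains of the T cell receptor, were examined in single-cell RNA data from the skin of 6 mice. The members were all gene columns whose names begin with Trav or Trbv. They numbered 91 of the 16158 gene columns, with 72 Trav columns in 20 families and 19 Trbv columns in 16 families. All mice were 6 to 12 weeks old and of the strain NINJA, whose cells can be induced to express a neoantigen. The skin area sampled had been treated with 4-OH-Tam. There were 2 mice in each of 3 groups, which the series describes as antigen off (NO_AG), antigen on (AG) and antigen on with CPI (AG_CPI). P14 CD8 T cells, known for their transgenic receptor, had been recovered from every mouse and examined before sequencing, per the labels' protocols, in mice without antigen as well as with it. Libraries came from a 10x Genomics 5′ kit, which reads from the end of the transcript where the variable segment lies.

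A T cell receptor chain is made by joining 1 variable segment to a joining segment (with a diversity segment between them in the beta chain) and then to a constant region. The variable segment encodes part of the surface that meets the peptide and its presenting molecule, and each developing T cell fixes its own choice. A polyclonal population therefore spreads its cells over many segments, and a clone or a transgenic receptor places all of its cells on 1 beta and 1 alpha segment. The P14 receptor, which recognises a lymphocytic choriomeningitis virus peptide, is known to pair a Trav14-family alpha chain with a Trbv13-3 beta chain.

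Segments of a family resemble each other, so the sequences of the leading beta segment and of its relatives show how many bases a read can use to tell them apart. In the GENCODE annotation of GRCm38, the build named by the submitters as mm10, the V exon of Trbv13-3 lies at chr6:41130292-41130585 on the plus strand. The V exon of Trbv13-1 lies at chr6:41116175-41116468 and that of Trbv13-2 at chr6:41121539-41121832, on the same strand. Each is the exon that encodes the mature variable region, in the coding part of the gene, and has 294 bases. In the Trbv13-3 line below, capitals mark the 16 bases that differ from both relatives, and in the other lines they mark the bases that differ from Trbv13-3.
Trbv13-3: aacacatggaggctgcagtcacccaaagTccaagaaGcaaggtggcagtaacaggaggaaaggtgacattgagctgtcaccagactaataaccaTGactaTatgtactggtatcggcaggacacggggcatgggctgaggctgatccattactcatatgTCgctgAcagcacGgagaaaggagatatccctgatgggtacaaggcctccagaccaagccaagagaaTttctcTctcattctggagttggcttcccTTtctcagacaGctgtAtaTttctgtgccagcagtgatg
Trbv13-1: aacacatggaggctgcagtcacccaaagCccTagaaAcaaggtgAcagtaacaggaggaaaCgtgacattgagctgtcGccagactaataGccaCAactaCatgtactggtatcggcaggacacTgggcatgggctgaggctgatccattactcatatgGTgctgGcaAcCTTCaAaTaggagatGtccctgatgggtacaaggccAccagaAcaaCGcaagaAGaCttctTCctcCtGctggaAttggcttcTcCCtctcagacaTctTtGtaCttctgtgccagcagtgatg
Trbv13-2: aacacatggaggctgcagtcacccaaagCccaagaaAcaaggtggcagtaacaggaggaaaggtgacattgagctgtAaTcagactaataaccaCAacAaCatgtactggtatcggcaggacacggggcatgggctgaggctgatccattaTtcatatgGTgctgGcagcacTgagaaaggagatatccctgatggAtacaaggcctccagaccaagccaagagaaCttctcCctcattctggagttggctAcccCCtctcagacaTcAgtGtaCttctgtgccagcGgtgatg
Trbv13-1 differed from Trbv13-3 at 41 bases (86.1% identity) and Trbv13-2 at 24 bases (91.8% identity). The differences are spread along the exon, and no V exon of the 22 annotated beta V genes is identical to another.

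The leading alpha segment was Trav14-1, whose V exon lies at chr14:53554247-53554558 on the plus strand and has 312 bases, of which the first 300 are shown. Its line has in capitals the 14 bases at which it differs from both Trav14-2 and Trav14-3, and the line of Trav14-2 (chr14:53640914-53641225) has in capitals its 20 differences from Trav14-1. The last 12 bases hold none of these differences.
Trav14-1: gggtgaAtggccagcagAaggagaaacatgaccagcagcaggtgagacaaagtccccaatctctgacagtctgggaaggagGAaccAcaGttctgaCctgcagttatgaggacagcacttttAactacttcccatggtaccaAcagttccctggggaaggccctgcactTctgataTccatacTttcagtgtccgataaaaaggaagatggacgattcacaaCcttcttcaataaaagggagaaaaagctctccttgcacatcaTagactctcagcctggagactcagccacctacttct
Trav14-2: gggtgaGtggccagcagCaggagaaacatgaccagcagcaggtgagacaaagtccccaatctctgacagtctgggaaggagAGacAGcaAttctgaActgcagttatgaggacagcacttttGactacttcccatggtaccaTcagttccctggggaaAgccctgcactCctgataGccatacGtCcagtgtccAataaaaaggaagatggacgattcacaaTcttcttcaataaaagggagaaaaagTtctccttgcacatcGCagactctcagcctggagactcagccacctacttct
The identity with Trav14-1 was 93.6% for Trav14-2 and 92.6% for Trav14-3. The closest relative with a column was Trav14n-1 with 95.8%. The alpha locus is less clear than the beta locus, since 34 of its 108 annotated V genes share a V exon sequence with another gene. Of the 72 Trav columns 5 have such an identical copy (Trav12n-3, Trav14n-1, Trav15d-1-dv6d-1, Trav6d-7 and Trav9d-3), and their values are uncertain. The 36 annotated alpha V genes and 3 beta V genes with no column are not analysed here. All columns lie on chr14:52427928-53977678 for Trav and chr6:41048290-41558452 for Trbv.

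After filters on cells and doublets the libraries held 1712 to 4763 cells, of which 1271 to 2297 had a UMI of Cd3e, Cd3d or Cd3g, the invariant chains that carry the receptor to the surface. Of these, the CD8 gate took cells with a Cd8a or Cd8b1 UMI and none of Cd4, and the CD4 gate took cells with a Cd4 UMI and none of Cd8a or Cd8b1. The CD8 gate took 140 and 452 cells from NO_AG, 1026 and 1067 in AG mice, and 1155 and 1290 in AG_CPI. The CD4 gate was small, with 46 and 56 cells in NO_AG, 182 and 154 in AG mice, and 29 and 53 in AG_CPI. Median depth in the CD8 gate was 2308 to 2932 UMIs per cell. All 9 T cell markers not used in the gate were detected in every mouse and gate. AG_CPI 1 stood apart from the other 5 libraries: a Xist UMI was found in 5.0% of its 60 CD8-gate cells that had both chains assigned and neither Trbv13-3 nor Trav14-1, against 69.4% to 81.4% in the others. Values without that mouse are given where a call or a direction changed. Library pairs shared 5 to 35 cell barcodes.

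A cell was assigned the Trbv and the Trav segment with most UMIs, and tied cells stayed unassigned. At least 1 Trbv UMI was found in 61.8% to 84.6% of CD8-gate cells and at least 1 Trav UMI in 41.4% to 76.7%. Of the 91 members 89 had a UMI in some T cell, 76 had at least 10 UMIs and 58 were found in all 6 mice. Trav11, the alpha segment of invariant natural killer T cells, and Trav6d-7 had none. A low level of these UMIs was also found outside T cells. In cells with at least 10 UMIs of Krt5 and Krt14, the keratins of basal keratinocytes, a Trbv13-3 UMI was found in 0%, 0.0596%, 0.215%, 3.07%, 0.719% and 2.92% of cells (NO_AG 1 and 2, AG 1 and 2, AG_CPI 1 and 2), at median depths of 2668 to 7158 UMIs. A UMI of any Trbv segment was found in 0.703% to 6.49% of these keratinocyte-gated cells. The same mice had a Trbv13-3 UMI in 1.43%, 2.65%, 47.2%, 47.1%, 57.5% and 65.1% of CD8-gate cells.

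Trbv13-3 took most of the beta-assigned CD8-gate cells in every mouse with antigen and few of them in the mice without. Its share was 2.13% of 94 cells and 3.12% of 320 cells in NO_AG, 54.5% of 848 and 73.6% of 636 in AG mice, and 79.6% of 783 and 76.9% of 1016 in AG_CPI. The groups did not overlap, and both AG_CPI mice lay above both AG mice. The means were 2.63% ± 0.705 (SD, n = 2) in NO_AG, 64.0% ± 13.5 (SD, n = 2) in AG and 78.2% ± 1.91 (SD, n = 2) in AG_CPI. An exact two-sided permutation test gave p = 0.333 for each pair of groups, the smallest value that 2 against 2 mice allow. The AG_CPI mean exceeded the AG mean by 14.2 percentage points, a gap near the SD of AG. The gap was 4.63 points without AG 1 and 23.7 points without AG 2.

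**Figure D1:**
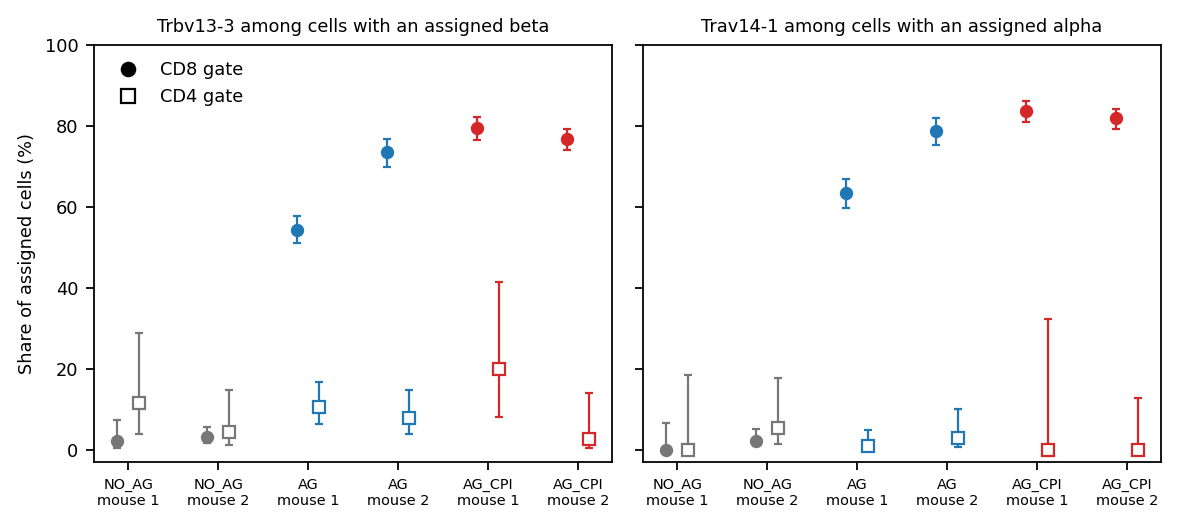
Share of Trbv13-3 among beta-assigned cells (left) and of Trav14-1 among alpha-assigned cells (right) in each mouse, in percent, with filled circles for the CD8 gate, open squares for the CD4 gate and bars for the Wilson 95% interval, which covers counting error only. In the CD8 gate the Trbv13-3 share is 54.5% to 79.6% in the 4 mice with antigen and 2.13% to 3.12% in NO_AG, while the CD4 gate stays at 2.78% to 20% in all 6 mice.

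Trav14-1 followed the same order over the mice. It was assigned in 0 of 54 alpha-assigned CD8-gate cells of NO_AG 1, which allows a share of up to 5.56%, and in 2.29% of 218 in NO_AG 2. The share was 63.4% of 719 and 78.8% of 575 cells in AG mice, and 83.8% of 773 and 82.0% of 954 in AG_CPI. Again no mouse with antigen overlapped with NO_AG. Over the 6 mice the shares of Trav14-1 and Trbv13-3 had a Pearson r of 0.998, the highest of all Trav segments. Next came Trav15-2-dv6-2 with 0.851, at 0% to 1.47% of cells, and Trav7d-3 with 0.634, at a mean of 0.0390%. These r values describe 6 mice whose order is set by the groups.

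The mean level in UMIs per 10000 over all CD8-gate cells was tested with limma on a log2 scale after adding 0.1, across 7518 genes, of which 25 were members. In AG against NO_AG, 4 members passed a Benjamini-Hochberg adjusted p of 0.05, against 1.05% of all genes tested. They were 2 higher, against 0.931% of all genes, and 2 lower, against 0.12%. For Trav14-1 the levels were 0 and 0.0444 in NO_AG, 6.84 and 3.71 in AG mice, and 6.21 and 8.41 in AG_CPI, so that the groups with antigen lay far above NO_AG. Trav14-1 rose by 5.42 (SE 0.30, adjusted p = 8.9e-05, limma) in AG. For Trbv13-3 the levels were 0.136 and 0.346 in NO_AG, 5.86 and 3.71 in AG mice, and 5.30 and 7.66 in AG_CPI, again without overlap. Trbv13-3 rose by 3.88 (SE 0.33, adjusted p = 0.00101, limma).

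Both segments kept their call in the AG_CPI mice and did not separate AG_CPI from AG. In AG_CPI against NO_AG, where 2.19% of all genes passed, 6 members passed, 3 of them higher (1.62% of all genes) and 3 lower (0.572%). Trav14-1 rose by 5.93 (SE 0.30, adjusted p = 4.1e-05, limma) and Trbv13-3 by 4.32 (SE 0.33, adjusted p = 0.000526, limma). Between AG_CPI and AG no member passed, where 0.0133% of all genes were called. At an unadjusted p under 0.05 there were 6 of 25 members and 5.59% of all genes. There the difference was 0.51 (SE 0.30) for Trav14-1 and 0.44 (SE 0.33) for Trbv13-3. Without the filter on low values, Trbv13-3 no longer passed, with an adjusted p (limma) of 0.123 in AG and 0.0591 in AG_CPI against NO_AG, while Trav14-1 still passed.

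Trav15-2-dv6-2, a segment that can serve in alpha and in delta chains, was the third member called higher in AG_CPI. Its levels were 0 and 0.00650 in NO_AG, 0.108 and 0.0646 in AG mice, and 0.143 and 0.299 in AG_CPI. It was higher in every mouse with antigen than in either without, and the AG and AG_CPI mice did not overlap. The change in AG_CPI against NO_AG was 1.59 (SE 0.29, adjusted p = 0.0295, limma). Like Trav14-1, it passed the filter on low values only through mice with antigen. Its call was lost without that filter (adjusted p = 0.145, limma) and when any NO_AG or AG_CPI mouse was left out.

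The members that passed as lower were Trbv15, Trav3-3 and Trbv12-1. Trbv15, a common beta segment of the NO_AG mice, had levels of 3.65 and 3.05 in NO_AG, 1.12 and 0.813 in AG mice, and 1.59 and 1.31 in AG_CPI. It fell by 1.70 (SE 0.20, adjusted p = 0.00738, limma) in AG and by 1.16 (SE 0.20, adjusted p = 0.0238, limma) in AG_CPI. Trav3-3 had levels of 0.392 and 0.422 in NO_AG, 0.103 and 0.114 in AG mice, and 0.00945 and 0.0344 in AG_CPI, with no overlap between the 3 groups. It fell by 1.28 (SE 0.21, adjusted p = 0.0307, limma) in AG and by 2.06 (SE 0.21, adjusted p = 0.00252, limma) in AG_CPI.

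Trbv12-1 had levels of 0.285 and 0.307 in NO_AG, 0.233 and 0.108 in AG mice, and 0.0484 and 0.0712 in AG_CPI, with no overlap between the groups. It fell by 1.31 (SE 0.26, adjusted p = 0.0386, limma) in AG_CPI against NO_AG.

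The lower levels were measured over all cells of the gate, Trbv13-3 cells included. With Trbv13-3 cells left out, no member was lower in AG against NO_AG and 1 was lower in AG_CPI, Trav3-3 with a change of -2.0 (adjusted p = 0.00799, limma). Trbv15 was then at -1.19 in AG (adjusted p = 0.184, limma) and 0.06 in AG_CPI (adjusted p = 0.955, limma), and Trbv12-1 at -0.80 in AG_CPI (adjusted p = 0.412, limma). Trav14-1 still rose among the cells left, by 3.18 in AG (adjusted p = 0.0107, limma) and by 4.56 in AG_CPI (adjusted p = 0.000235, limma). This setting removed cells with a Trbv13-3 UMI and kept cells with no beta assigned. In the whole gate, Trav14-1 cells with no beta assigned numbered 47, 93, 167 and 117 (AG 1, AG 2, AG_CPI 1, AG_CPI 2). Those assigned another beta than Trbv13-3 numbered 13, 17, 29 and 41. The part of missed Trbv13-3 chains in this rise was not tested. The calls for Trbv15, Trav3-3 and Trbv12-1 over all cells of the gate were all lost without the filter on low values. There the adjusted p (limma) was 0.168 for Trbv15 and 0.209 for Trav3-3 in AG, and 0.175 for Trbv15, 0.0887 for Trav3-3 and 0.220 for Trbv12-1 in AG_CPI. Trav3-3 in AG was not called when any of the 6 mice was left out, Trbv15 in AG when either NO_AG mouse was, and Trav3-3 in AG_CPI when AG_CPI 1 was. Trbv15 and Trbv12-1 in AG_CPI were not called when any NO_AG or AG_CPI mouse was left out.

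The relatives of Trbv13-3 did not pass in AG or AG_CPI against NO_AG in the reported fit of all 6 mice. With the replicate number as a block, both Trbv13-1 and Trbv13-2 were called lower in AG_CPI, where 1.90% of all genes were. Trbv13-1 took 14.9% and 7.19% of beta-assigned CD8-gate cells in NO_AG, 5.78% and 3.77% in AG mice, and 1.02% and 2.76% in AG_CPI. Its level differed by -1.10 (SE 0.55, adjusted p = 0.473, limma) in AG and by -1.81 (SE 0.55, adjusted p = 0.147, limma) in AG_CPI. Trbv13-2 took 8.51% and 5.62% in NO_AG, 3.89% and 3.93% in AG mice, and 1.79% and 1.38% in AG_CPI, and its level differed by -0.52 (SE 0.24, adjusted p = 0.441, limma) and -1.12 (SE 0.24, adjusted p = 0.0544, limma). Trbv13-2 passed in AG_CPI without further scaling of the deposited values (adjusted p = 0.0371, limma), with cells thinned to 1500 UMIs (adjusted p = 0.0146, limma) and with doublets kept (adjusted p = 0.0448, limma). It also passed without AG 1 (adjusted p = 0.0119, limma) and without AG 2 (adjusted p = 0.00795, limma), and Trbv13-1 passed without AG 2 (adjusted p = 0.0364, limma).

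The CD4 gate did not show this picture. The Trbv13-3 share of beta-assigned CD4-gate cells was 11.5% of 26 and 4.44% of 45 in NO_AG, 10.6% of 141 and 7.92% of 101 in AG mice, and 20% of 20 and 2.78% of 36 in AG_CPI. All 3 groups overlapped, with means of 7.99% ± 5.02, 9.28% ± 1.92 and 11.4% ± 12.2 (SD, n = 2). The AG_CPI mean was 2.11 percentage points above that of AG with both mice and differed by -6.50 points without AG_CPI 1. Trav14-1 was assigned in 5 CD4-gate cells of all 6 mice, 2 of them in NO_AG 2, 1 in AG 1 and 2 in AG 2. In limma fits over 5326 genes, 17 of the 91 members could be tested and none passed in any of the 3 comparisons, where 0.0751%, 0.0939% and 0.357% of all genes passed (AG against NO_AG, AG_CPI against AG, AG_CPI against NO_AG). Over all genes, 0.0751%, 0.0188% and 0.282% were higher and 0%, 0.0751% and 0.0751% lower. At an unadjusted p under 0.05 there were 4, 5 and 4 members, and 5.26%, 4.79% and 12.4% of all genes.

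Leading the CD4 gate was Trbv19, with 11.5% and 2.22% of beta-assigned cells in NO_AG, 14.2% and 25.7% in AG mice, and 30.0% and 13.9% in AG_CPI. Every mouse with antigen was above both NO_AG mice. The difference in level was 2.53 (SE 0.59, adjusted p = 0.367, limma) in AG and 2.52 (SE 0.59, adjusted p = 0.162, limma) in AG_CPI against NO_AG, neither past the threshold; the latter passed when either AG mouse was left out. The summed level of 4 regulatory T cell markers was 7.76 and 5.31 in NO_AG, 16.3 and 12.8 in AG mice, and 16.7 and 30.1 in AG_CPI. That of 12 myeloid markers was 5.83 and 2.82, 25.2 and 27.8, and 5.50 and 7.70, and that of 6 B cell markers 2.17 and 1.93, 5.23 and 3.59, and 4.86 and 7.97. Their part in the Trbv19 values was not tested. Trbv13-1 was assigned in 2 and 4 CD4-gate cells of NO_AG, 11 and 6 of AG and none of AG_CPI, and its level differed by -3.48 (SE 0.77, adjusted p = 0.424, limma) in AG_CPI against AG. After Trbv19 the CD4 gate was led by Trbv13-3, Trbv13-2, Trbv31 and Trbv15, with means over the mice of 9.55%, 9.12%, 8.91% and 7.72%. Among alpha segments the highest means were 8.57% for Trav6-7-dv9, 7.49% for Trav14-3, 5.64% for Trav14d-3-dv8, 5.53% for Trav10 and 5.08% for Trav14-2, and each ranged from 0% to above 10% between mice. Trav6-7-dv9 led through AG_CPI 2, with 8 of 26 cells (30.8%), and took 0% to 7.46% in the other mice. AG_CPI 1 had 8 alpha-assigned cells, so that 1 cell is 12.5% there.

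Within mice, the CD8 gate was compared with the CD4 gate of the same skin over 7673 genes, and 3 of 31 members tested passed, against 4.31% of all genes. Over all genes 2.01% were higher in the CD8 gate and 2.31% lower. Trav14-1 was higher in the CD8 gate by 3.33 (SE 0.82, adjusted p = 0.0322, limma). This held in the 4 mice with antigen, while NO_AG 1 had none in either gate and NO_AG 2 was lower in the CD8 gate (levels of 0.0444 against 0.372). Trbv31 and Trav6-7-dv9 were lower, by -1.91 (SE 0.39, adjusted p = 0.00922, limma) and -1.41 (SE 0.36, adjusted p = 0.0368, limma). Trbv31 is the beta segment that lies in inverse orientation downstream of the constant genes, and its CD8-gate levels were 0 and 0.139 in NO_AG, 0.0928 and 0.0644 in AG mice, and 0.0234 and 0.150 in AG_CPI. In the CD4 gate the Trbv31 levels were 0.843 and 0.10, 0.429 and 0.689, and 1.42 and 0.551. It was higher in the CD4 gate in 5 of the 6 mice, all but NO_AG 2, and passed whichever mouse was left out, but not without the filter on low values (adjusted p = 0.144, limma). Trbv13-3 differed by 1.67 (SE 0.47, adjusted p = 0.0579, limma), and was higher in the CD8 gate in all mice but NO_AG 1. The call for Trav14-1 was lost when any AG or AG_CPI mouse was left out, and that for Trav6-7-dv9 when any of 5 mice was. Both were also lost without the filter, with adjusted p (limma) of 0.226 and 0.20.

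Pairing was read in CD8-gate cells with both chains assigned. In the mice with antigen nearly every Trbv13-3 cell carried Trav14-1. It was the alpha segment of 95.4% of 415 and 93.2% of 368 Trbv13-3 cells in AG, and of 94.8% of 477 and 94.4% of 661 in AG_CPI. In NO_AG it was found in 0 of 1 and 0 of 5 such cells, too few to give a share. Seen from the other chain, 96.8% of 409 and 95.3% of 360 Trav14-1 cells with a beta in AG mice, and 94.0% of 481 and 93.8% of 665 in AG_CPI, had Trbv13-3, while all 5 in NO_AG 2 had another beta. In the CD4 gate, 17 cells assigned Trbv13-3 had an assigned alpha, and none of these was Trav14-1.

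**Figure D2:**
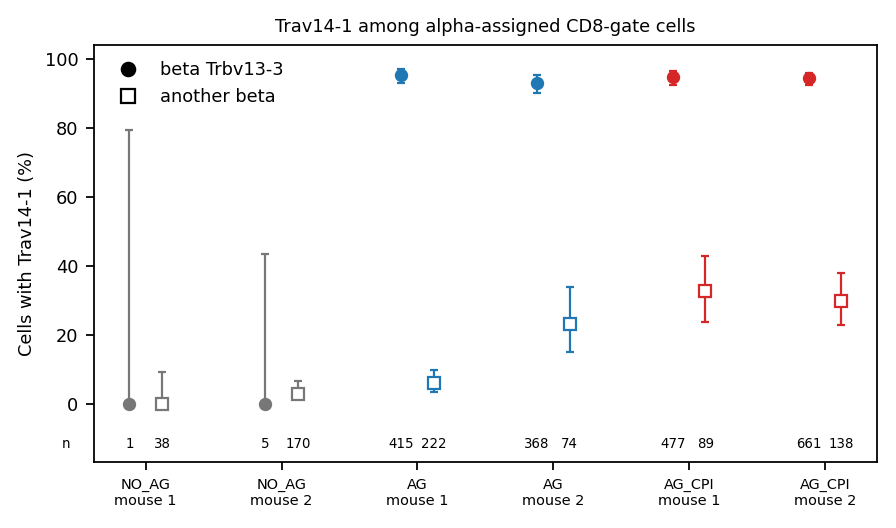
Share of alpha-assigned CD8-gate cells that carried Trav14-1 in each mouse, in percent, for cells whose beta is Trbv13-3 (filled circles) and cells with another beta (open squares), with Wilson 95% intervals and the number of cells (n) beneath. In the 4 mice with antigen the share is 93.2% to 95.4% with Trbv13-3 and 5.86% to 32.6% with another beta.

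Trav14-1 also appeared beside other beta segments, in 0% of 38 and 2.94% of 170 other-beta cells in NO_AG, 5.86% of 222 and 23.0% of 74 in AG mice, and 32.6% of 89 and 29.7% of 138 in AG_CPI. These cells numbered 13, 17, 29 and 41 in the 4 mice with antigen, and 76.9%, 64.7%, 48.3% and 53.7% of them also had a Trbv13-3 UMI. None of the 5 in NO_AG 2 had one. A second beta segment was found in 20.5%, 18.5%, 38.8% and 34.0% of all other-beta cells of these 4 mice, against 6.49%, 3.85%, 4.82% and 6.91% of Trbv13-3 cells. Doublets, free RNA and cells that carry a pair of beta chains cannot be told apart here.

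Because a chain can be missed at this depth, cells with a UMI of either segment were also counted. They made up 1.43% and 3.76% of the CD8 gate in NO_AG, 52.0% and 56.3% in AG mice, and 74.2% and 75.7% in AG_CPI. Cells with both made up 0% and 0%, 42.0% and 35.7%, and 44.4% and 55.4%. Among cells with a Trbv13-3 UMI in the mice with antigen, 75.7% to 89.0% also had a Trav14-1 UMI, and 72.7% to 89.6% of cells with a Trav14-1 UMI had a Trbv13-3 UMI.

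Trav levels were compared between Trbv13-3 cells and other-beta cells within mice, over 7648 genes and in 5 mice, since NO_AG 1 had only 2 Trbv13-3 cells. Trbv segments made the groups and are not read. The Trav14-1 level was 0, 13.9, 6.80, 8.35 and 12.2 in Trbv13-3 cells (NO_AG 2, AG 1, AG 2, AG_CPI 1, AG_CPI 2) and 0.0666, 0.488, 0.949, 1.85 and 1.74 in other-beta cells. It was higher in Trbv13-3 cells in all 4 mice with antigen. With all 5 mice, no Trav segment of 18 tested passed, where 0.144% of all genes were called (0.0131% higher and 0.131% lower), all of them Trbv segments. At an unadjusted p under 0.05 there were 14 Trav segments and 3.96% of all genes, and Trav14-1 differed by 2.28 (SE 0.58, adjusted p = 0.758, limma). Without NO_AG 2, whose 10 Trbv13-3 cells held no Trav14-1 UMI, Trav14-1 passed at 3.03 (adjusted p = 0.00155, limma). It passed as well at 3.37 with Trdc-positive cells left out (adjusted p = 0.000144, limma), at 3.1 with cells thinned to 1500 UMIs (adjusted p = 9e-05, limma) and at 3.22 with 2 UMIs needed for an assigned segment (adjusted p = 0.000116, limma). In these settings NO_AG 2 kept 9, 7 and 7 Trbv13-3 cells, under the 10 a mouse needed, so these fits also lack that mouse.

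Trbv13-3 cells of the mice with antigen used 11, 12, 13 and 14 alpha segments, Trav14-1 included. After Trav14-1, in the mice with antigen the mean shares were 1.15% for Trav21-dv12, 1.04% for Trav15-2-dv6-2 and 0.807% for Trav13-4-dv7, followed by 0.392% for Trav14-3 and 0.361% for Trav16. The first 3 of these carry dv in their names, the mark of segments that also serve as delta variable segments. The cells with Trav15-2-dv6-2 numbered 3, 4, 4 and 10, those with Trav21-dv12 3, 5, 7 and 7, and those with Trav13-4-dv7 5, 5, 1 and 3 (AG 1, AG 2, AG_CPI 1, AG_CPI 2). In other-beta cells the highest means over the 6 mice were 15.7% for Trav14-1, 7.44% for Trav3-3, 4.43% for Trav14-3, 4.21% for Trav8n-2 and 4.03% for Trav6-7-dv9, and the order differed between mice. Trav3-3 took 18.4% and 8.82% in NO_AG, 3.15% and 13.5% in AG mice, and 0% and 0.725% in AG_CPI. Trav8n-2 was highest in NO_AG 2 (13.5%) and Trav6-7-dv9 in AG_CPI 2 (13%).

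Trdc encodes the constant region of the delta chain and is a marker of gamma-delta T cells. Here it was also found in cells with an assigned alpha and an assigned beta, so it does not name a cell as gamma-delta. In the mice with antigen a Trdc UMI was found in 42.0%, 38.2%, 38.0% and 38.3% of Trbv13-3 cells, against 1.30%, 7.14%, 15.6% and 9.79% of other-beta cells. The Trdc level differed by 2.33 (SE 0.41, adjusted p = 0.149, limma) between the 2 kinds of cell within mice and did not pass. Among cells with both Trbv13-3 and Trav14-1 the share with Trdc was 43.4%, 37.6%, 38.7% and 38.8%. Among the 19, 25, 25 and 37 Trbv13-3 cells with an alpha other than Trav14-1, the share with Trdc was 31.6%, 68.0%, 52.0% and 48.6%. With Trdc-positive cells left out, Trbv13-3 and Trav14-1 still passed in AG and AG_CPI against NO_AG. Trbv13-3 cells of the mice with antigen had a median depth of 3430.5, 3452, 2343 and 2735 UMIs, against 2548.5, 2421.5, 2501.5 and 3230 in other-beta cells, so they were deeper in AG and shallower in AG_CPI. Those that were alpha-positive held a mean of 6.02, 3.42, 3.08 and 4.53 Trav UMIs, against 2.57, 2.32, 2.62 and 3.55 in alpha-positive other-beta cells. Mean Trac UMIs, for the alpha constant region, were 3.70, 2.86, 2.63 and 2.59 against 1.08, 1.14, 1.67 and 1.83, and the Trac level within mice differed by 0.89 (SE 0.14, adjusted p = 0.0787, limma), which did not pass. In AG_CPI 1 a Xist UMI was found in 68.6% of cells with Trbv13-3 and Trav14-1, against the 5.0% of cells with other pairs given above. The part of Trdc, of depth and of this split in the results on segments was not tested.

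Diversity was summarised by the inverse Simpson index, the effective number of equally used segments. For Trbv in the CD8 gate it was 12.1 and 11.4 in NO_AG, 3.21 and 1.83 in AG mice, and 1.57 and 1.68 in AG_CPI. The means were 11.7 ± 0.487, 2.52 ± 0.979 and 1.62 ± 0.0812 (SD, n = 2), with no overlap between any 2 groups and an exact permutation p of 0.333 for each pair, the smallest possible. For Trav the index was 28.1 and 24.6 in NO_AG, 2.46 and 1.61 in AG mice, and 1.42 and 1.49 in AG_CPI, with means of 26.3 ± 2.45, 2.04 ± 0.605 and 1.45 ± 0.0457 (SD, n = 2) and no overlap. The number of segments in use did not drop in this way: 16 and 17 Trbv segments were assigned in NO_AG, 19 and 19 in AG mice, and 16 and 18 in AG_CPI. In equal numbers of cells the expected number of Trbv segments was 16.1 in NO_AG, 14.3 in AG and 10.4 in AG_CPI, and that of Trav segments 28.2, 13.3 and 8.53.

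Among CD8-gate cells with another beta than Trbv13-3, the Trbv index was 11.6 and 10.8 in NO_AG, 14 and 11.7 in AG mice, and 6.80 and 11.6 in AG_CPI. All mice but AG_CPI 1 lay between 10.8 and 14. The Trav index of these cells was 19.0 and 22.2 in NO_AG, 28.5 and 13.4 in AG mice, and 7.02 and 8.37 in AG_CPI. AG overlapped with NO_AG, and both AG_CPI mice were below the other 4, with an exact permutation p of 0.333. These cells include those with Trav14-1, which made up 29.7% to 32.6% of them in AG_CPI. In the CD4 gate the Trbv index was 13.5 and 16 in NO_AG, 11.8 and 9.42 in AG mice, and 7.60 and 16.6 in AG_CPI. Both AG mice were below both NO_AG mice (exact permutation p = 0.333), a difference not seen with the exponential of Shannon entropy, where the groups overlapped.

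**Figure D3:**
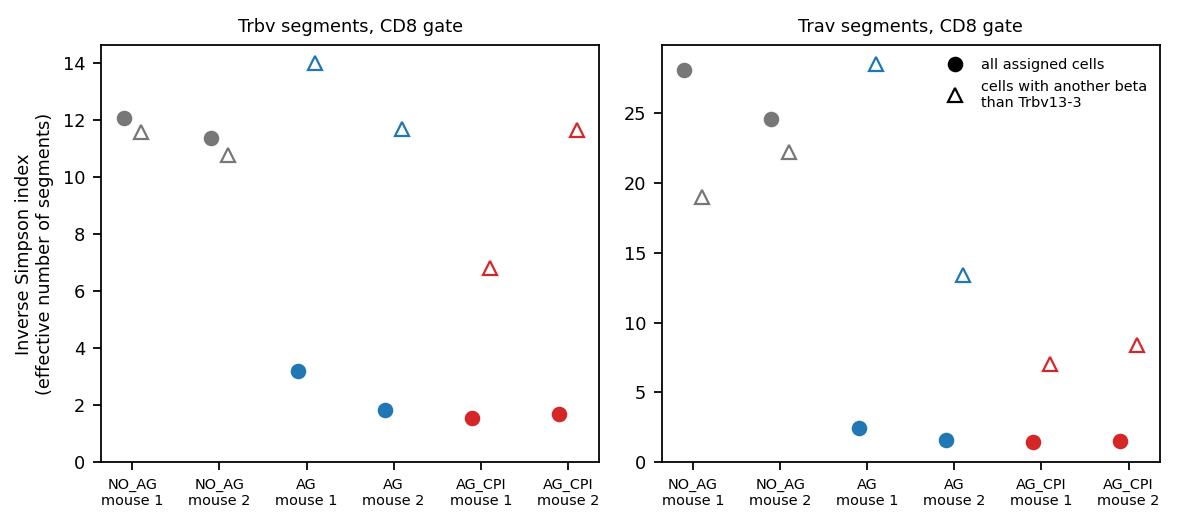
Inverse Simpson index of Trbv (left) and Trav segments (right) in the CD8 gate of each mouse, for all assigned cells (filled circles) and for cells with another beta than Trbv13-3 (open triangles). The Trbv index is 11.4 to 12.1 in NO_AG and 1.57 to 3.21 in the mice with antigen, and with Trbv13-3 cells left out it is 6.80 to 14 in all 6 mice.

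The remaining beta usage of the CD8 gate was spread over 18 segments and was only partly alike in rank between mice. The leading segment was Trbv13-1 in NO_AG 1 and AG 1, Trbv3 in NO_AG 2, Trbv13-2 in AG 2, Trbv19 in AG_CPI 1 and Trbv15 in AG_CPI 2. Over other-beta cells, the highest means over the 6 mice were 14.6% for Trbv15 (8.55% to 23.1%), 11.1% for Trbv13-1 (5.0% to 15.2%), 10.6% for Trbv16 (8.33% to 13.8%), 10.3% for Trbv19 (5.11% to 25.0%) and 8.77% for Trbv13-2 (5.81% to 14.9%). Trbv19 reached its highest share, 25.0%, in AG_CPI 1 and was at 5.11% to 13.5% in the other 5 mice. Spearman correlations of the segment shares between mice had a median of 0.63 in the CD8 gate (0.44 to 0.85 over the 15 pairs of mice) and of 0.32 in the smaller CD4 gate (-0.41 to 0.63). The lowest CD8-gate value, 0.44, was that between the 2 AG mice. Both medians describe segments, which are not independent of each other.

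**Figure D4:**
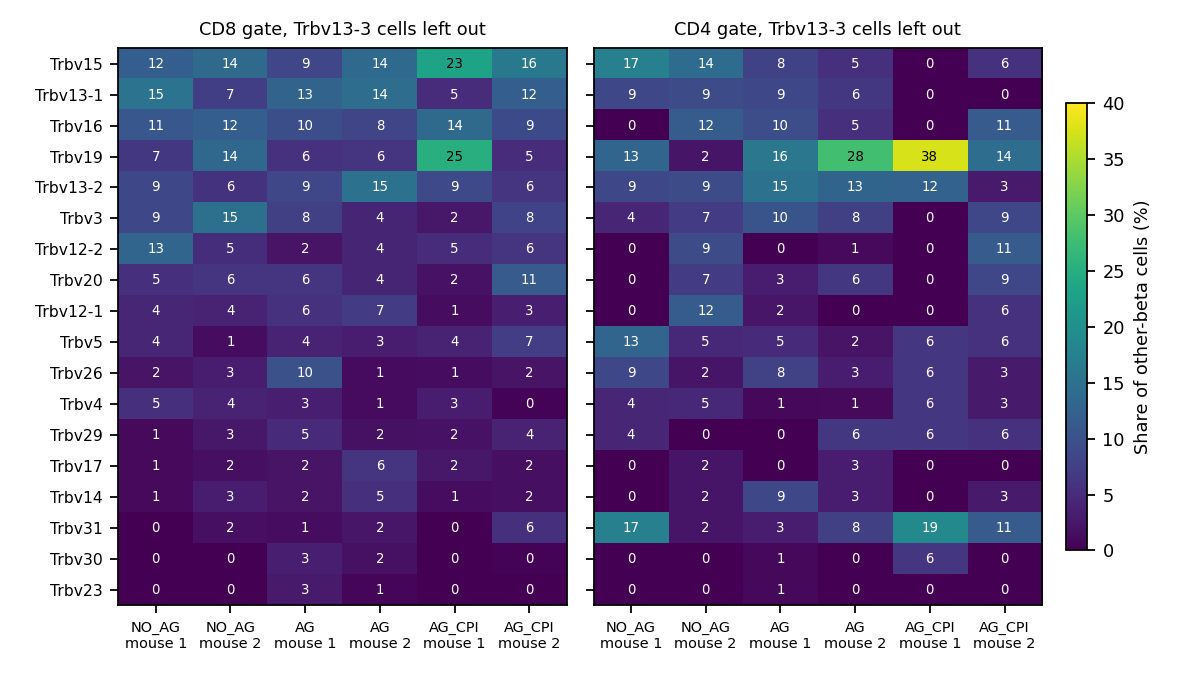
Share of each Trbv segment among beta-assigned cells with Trbv13-3 cells left out, in percent (rounded numbers in the cells and colour scale), for each mouse in the CD8 gate (left) and the CD4 gate (right). Trbv15, Trbv13-1 and Trbv16 are used in the CD8 gate of every mouse, and Trbv19 stands out at 25.0% in the CD8 gate of AG_CPI 1 and at 37.5% in its CD4 gate of 16 such cells.

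Alpha usage in the CD8 gate was led, over all alpha-assigned cells, by Trav14-1 (mean 51.7% over the mice), Trav3-3 (4.31%), Trav21-dv12 (2.83%), Trav8n-2 (2.78%) and Trav16n (2.15%). Trav3-3 took 13% and 8.72% of alpha-assigned cells in NO_AG, 1.25% and 2.61% in AG mice, and 0.129% and 0.210% in AG_CPI. Trav21-dv12 took 9.26% of the 54 cells of NO_AG 1 and 0.556% to 2.75% in the other mice. Trav8n-2 was concentrated in NO_AG 2, where it took 11.9%, against 0.210% to 1.85% in the other mice. Over all alpha-assigned cells of the CD8 gate, Trav14-2 ranged from 0% to 3.67%, Trav14-3 from 0% to 2.78%, Trav14d-3-dv8 from 0% to 1.85% and Trav14n-3 from 0.129% to 3.70%. Over other-beta cells Trav14-3 took 0% in both NO_AG mice, 8.56% and 2.70% in AG mice, and 14.6% and 0.725% in AG_CPI, so it was high in AG 1 and AG_CPI 1. Trav14n-1, the closest relative of Trav14-1 with a column, had 2 UMIs in T cells of all mice. Trav1, the alpha segment of mucosal-associated invariant T cells, was assigned in 8 CD8-gate cells (4 in AG 1, 2 in NO_AG 2 and 2 in AG_CPI 2) and in 5 CD4-gate cells.

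The mouse alpha locus holds duplicated stretches, whose copies carry a d or n in the segment name. Of the Trav columns 36 are original segments, 15 d copies, 13 n copies and 8 dv-named segments. Names with dv were set apart first, so Trav14d-3-dv8, Trav15d-1-dv6d-1 and Trav16d-dv11 are not among the d copies. Another 36 annotated alpha V genes have no column, and 29 of them share a V exon sequence with another gene. The shares below describe the columns only. Among CD8-gate cells with neither Trbv13-3 nor Trav14-1, originals were used by 47.4% and 55.8% in NO_AG, 56.5% and 71.9% in AG mice, and 68.3% and 46.4% in AG_CPI. The n copies were used by 13.3% to 30.3% and the d copies by 1.67% to 12.0%. Originals were above NO_AG in both AG mice, though AG 1 (56.5%) lay close to NO_AG 2 (55.8%). The n copies took 23.4% and 15.8% in AG mice, below the 26.3% and 30.3% of NO_AG. In NO_AG 2 they include Trav8n-2, at 13.5% of other-beta cells. AG_CPI overlapped with both groups in these 2 classes, and the differences were not tested.

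Apart from Trbv13-3 with Trav14-1, most of the distinct segment pairs of each mouse were seen in a single cell. Such other pairs were found in 39 and 175 CD8-gate cells of NO_AG, 241 and 99 of AG, and 114 and 175 of AG_CPI. They fell into 31, 96, 117, 64, 51 and 87 distinct pairs, of which 26, 70, 75, 47, 32 and 54 were found in a single cell. The other 5, 26, 42, 17, 19 and 33 pairs were found in more than 1 cell of the mouse. Trbv3 with Trav14-3 was found in 16 cells of AG 1, Trbv19 with Trav14-3 in 13 cells of AG_CPI 1, and Trbv3 with Trav7n-4 in 12 cells of NO_AG 2. Each was found in no CD8-gate cell of another mouse. Trbv15 with Trav8n-2 was found in 11 cells of NO_AG 2 and 2 of AG_CPI 1, and Trbv13-2 with Trav3-3 in 9 cells of AG 2, 2 of NO_AG 1 and 1 of AG 1. In the CD4 gate, Trbv19 with Trav14-3 was found in 1 cell of AG 1, 5 of AG 2 and 1 of AG_CPI 1. A shared pair of segments is not a shared clone, since the joining segments and the junction are not in these data.

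**Figure D5:**
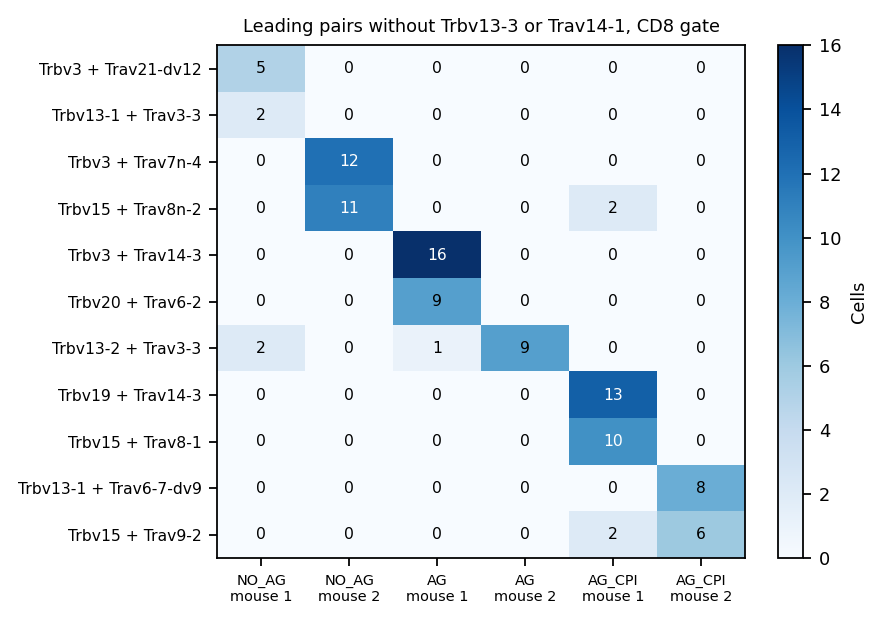
Number of CD8-gate cells of each mouse (columns) with a given beta and alpha segment pair (rows), for up to 2 leading pairs per mouse, with pairs that hold Trbv13-3 or Trav14-1 left out. Of the 11 pairs, 8 are found in CD8-gate cells of 1 mouse only, and the highest number is 16 cells for Trbv3 with Trav14-3 in AG 1.

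Of a list of 18 other genes of the receptor complex and its proximal signalling, 16 had a column and 15 were tested in the CD8 gate. Trac and Trbc2, the constant regions of the alpha and beta chains, rose in AG by 1.17 (SE 0.18, adjusted p = 0.0230, limma) and 1.05 (SE 0.17, adjusted p = 0.0277, limma). Both also rose in AG_CPI against NO_AG, by 1.59 (SE 0.18, adjusted p = 0.00335, limma) and 1.08 (SE 0.17, adjusted p = 0.0146, limma). Trat1, an adaptor that associates with the receptor complex, had levels of 2.11 and 2.94 in NO_AG, 1.27 and 0.418 in AG mice, and 0.0397 and 0.0616 in AG_CPI, and fell by 4.11 (SE 0.39, adjusted p = 0.00206, limma) in AG_CPI. The remaining genes of the list, among them Cd247, Lck, Zap70 and Lat, which carry the signal from the receptor, did not pass, and none of the list passed between AG_CPI and AG. The median change over the 15 genes was 0.04 in AG and 0.08 in AG_CPI against NO_AG, beside 0.01 and 0.00 over all genes. Trdc rose by 2.14 (SE 0.34, adjusted p = 0.0276, limma) in AG and 2.91 (SE 0.34, adjusted p = 0.00457, limma) in AG_CPI, and Trdv4, a delta variable segment, fell by 1.54 (SE 0.32, adjusted p = 0.0494, limma) in AG_CPI. The 25 members that passed the filter on low values had a median change of -0.26 in AG and -0.86 in AG_CPI. Within mice, 2 genes of the list were higher in the CD8 gate than in the CD4 gate, among them Trbc2 (by 0.84). Cd5 (by -1.86) and Cd6 (by -0.86), which dampen receptor signalling, were lower. Trdc and Trdv4, the 2 gamma-delta receptor genes with a column, were also called higher in the CD8 gate. Of all genes 2.01% were higher and 2.31% lower.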

How the data were processed

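Single-cell libraries from the skin of 6 mice were mapped with Cell Ranger version 3.1 to mm10, per the submitters' processing notes. The deposited values have no stated unit. They were read as UMIs per 10000 in each cell, made by the authors into log10 after adding 1, because under log10 100% of values returned whole UMIs (within 0.01) and under the natural log 65.3% to 67.8% did. UMIs were recovered by inverting that log10 value. The columns hold 95.4% to 96.7% of the UMIs of a library, so genes were dropped after scaling.

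Cells with fewer than 200 genes or over 20% mitochondrial UMIs were dropped. The highest Scrublet scores (scanpy version 1.11.5), 0.8% for each 1000 cells of a library, were removed as doublets. Linear values were averaged per mouse and gate, given TMM scaling, and tested in limma version 3.58.1 (R version 4.3.3) on log2 after a pseudocount of 0.1, which understates the change of low genes. Genes needed 10 UMIs and a mean of 0.1 in 2 libraries, and a mouse needed 10 cells. Adjusted p-values are Benjamini-Hochberg over all genes tested. The 3 groups shared 1 spread. Comparisons within mice had the mouse as a block. The fit was tested on simulated data. Intervals of shares are Wilson 95% intervals, and for a share of 0 the upper limit is 3 counts. These measure counting error only, while p-values measure the spread between the samples labelled as biological replicates. Diversity needed 20 assigned cells. Exact permutation tests used scipy version 1.17.1 and sequence alignments biopython version 1.88.

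The members, gene lists and tests were chosen with earlier results of these data known. Named segments are Trbv13-3 and its family, the 5 Trbv and 5 Trav segments with the highest mean share per gate, the 5 leading Trav segments in Trbv13-3 and in other-beta cells, every segment past the threshold, the Trav14 family, Trav11, Trav1 and the 3 Trav segments most like Trbv13-3. Segment pairs, Xist and Trdc splits were chosen after their values were seen. Gene positions are from GENCODE. Lists of markers of other cell types were summed in each gate: in the CD8 gate keratinocyte markers reached 8.08 to 93.2 per 10000, myeloid 3.92 to 17.9, gamma-delta T 1.07 to 3.10, regulatory T 0.970 to 2.43, NK and innate lymphoid 0.880 to 1.83, fibroblast 0.0496 to 0.887 and B cell 0.270 to 0.556. Their part in the results was not tested. Alternatives changed the pseudocount, filter, scaling, doublets, gates, depth, assignment rule, diversity index and the mice used.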

Additional observations from a re-analysis of the deposited data

Results flagged for a closer look

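The Trbv13-3 share in the CD8 gate minus that in the CD4 gate had opposite signs with and without antigen. The mean difference was -5.37 percentage points in NO_AG, where both mice were below 0 on 3 of 26 and 2 of 45 CD4-gate cells, 54.8 points in AG and 66.8 points in AG_CPI, where all 4 mice were above 0. In NO_AG 2 the direction depends on the measure, since its Trbv13-3 level over all cells was 0.346 in the CD8 gate and 0.319 in the CD4 gate. For Trbv13-1 the mean difference was -2.10 points in AG, with both mice below 0, and 1.89 points in AG_CPI, with both above. In AG_CPI the segment was assigned in 0 of 20 and 0 of 36 CD4-gate cells, which allows shares of up to 15% and 8.33%, so these differences are the CD8-gate shares alone and could not fall below 0. In NO_AG the differences were 7.20 and -1.70 points. These differences between groups were not tested.

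Trbv13-3 and Trav14-1 UMIs also appeared in keratinocyte-gated cells, which take no part in the comparisons, above the level in NO_AG. A Trbv13-3 UMI was found in 3.07% of these cells in AG 2 and 2.92% in AG_CPI 2. A Trav14-1 UMI was found in 0.538% in AG 1, 3.07% in AG 2 and 3.51% in AG_CPI 2. NO_AG had at most 0.0596% for either segment.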

How the results depend on the processing

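Under alternatives other than leaving out a mouse, 110 of 134 counts of called segments stayed within 1.5 times the reported count, 190 of 224 fold changes of named segments kept their direction and call, and 93 of 104 shares and diversity ratios moved by less than the SD between mice. With 1 mouse left out these numbers were 72 of 96, 123 of 162 and 90 of 90. With 2 mice in a group, leaving 1 out moves the group mean by less than their SD. The last of these numbers therefore says little about dependence on 1 mouse. The CD8-gate Trbv13-3 share of AG_CPI minus that of AG, for instance, ranged from 4.63 to 23.7 points. Trav14-1 and Trbv13-3 kept their calls in AG and in AG_CPI against NO_AG with any mouse left out, with ranges of 4.99 to 5.85 and 3.42 to 4.33 in AG and 5.66 to 6.17 and 3.86 to 4.76 in AG_CPI.

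In the CD8 gate, AG against NO_AG had 1 segment higher without the filter on low values and with Trbv13-3 cells left out, and 0, 1 and 0 lower without the filter, with Trdc-positive cells left out and with Trbv13-3 cells left out. AG_CPI against NO_AG had 1 higher without the filter and with Trbv13-3 cells left out, and 0, 1 and 1 lower under the same 3 settings. AG_CPI against NO_AG in the CD4 gate had 1 higher with cells thinned to 1500 UMIs. CD8 against CD4 had 2 higher with a pseudocount of 0.5, with cells positive for both markers in both gates and with Trbv13-3 cells left out, 0 without the filter and 4 thinned, and 0 lower without the filter and 1 thinned or with Trbv13-3 cells left out. Trbv13-3 against other-beta cells had 1 higher with Trdc-positive cells left out, thinned, or with 2 UMIs required, settings in which NO_AG 2 had too few Trbv13-3 cells to enter. The cause of the other changes was not tested.

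With 1 mouse left out, the CD8 gate had 2 to 3 segments higher and 0 to 5 lower in AG against NO_AG, 0 to 1 lower in AG_CPI against AG, and 2 to 3 higher and 0 to 9 lower in AG_CPI against NO_AG. The CD4 gate had 0 to 1 higher in AG_CPI against NO_AG, CD8 against CD4 had 0 to 3 higher and 1 to 4 lower, and Trbv13-3 against other-beta cells 0 to 1 higher. Without the mouse named, the difference reversed for Trbv13-1 in AG_CPI against AG in the CD8 gate (0.082 without AG_CPI 1, range -1.50 to 0.082), and in the CD4 gate for Trbv13-3 in AG against NO_AG (-0.12 without AG 1, range -0.12 to 1.24) and in AG_CPI against AG (-0.44 without AG 2 and -0.079 without AG_CPI 1, range -0.44 to 0.92). With Trbv13-3 cells left out, Trbv13-2 in AG (0.13) and Trbv15 in AG_CPI against NO_AG (0.058) reversed. Of these 5 differences, only that of Trbv15 was called in the full data.

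Replicate numbers did not pair the samples: deviations of same-numbered mice correlated at 0.08 to 0.13 in the CD8 gate and -0.08 to -0.02 in the CD4 gate. With the replicate number as a block, segments lower in the CD8 gate numbered 4 in AG and 8 in AG_CPI against NO_AG, while the share of all genes called lower also went up, from 0.12% to 0.412% and from 0.572% to 1.90%. The segments gained were Trbv12-2 and Trbv16 in AG, and these and Trbv3, Trbv13-1 and Trbv13-2 in AG_CPI. Segments higher stayed at 2 and 3, AG_CPI against AG and the CD4 gate stayed at 0.

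The log2 ratio of Trbv diversity in the CD8 gate, AG over NO_AG, was -2.22 and became -1.30 with Shannon entropy and -0.17 in equal numbers of cells. That of the CD4 gate was -0.48 and became 0.038 and -0.10. The ratio of Trav diversity in the CD8 gate was -3.69 and became -3.20 without Trdc-positive cells, -4.35 with 2 UMIs required, -2.38 with Shannon entropy, -1.08 in equal numbers and -2.76 over families. For AG_CPI over AG it was -0.49 and became -0.94 with Shannon entropy, and without Trbv13-3 cells it was -1.44 and became -0.45 in equal numbers. Without AG_CPI 1, the Trbv ratio of AG_CPI over AG went from 0.19 to 0.65 in the CD4 gate and from -0.48 to -0.14 in CD8-gate cells without Trbv13-3. Trav diversity of the CD4 gate had too few cells in 2 mice to be compared between groups. Depth limits the assignment, since a Trav UMI was missing in 23.3% to 58.6% of CD8-gate cells, and the number of mice limits every comparison.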

Other observations

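Cells with a Cd3 UMI and no UMI of Cd4, Cd8a or Cd8b1 were outside both gates. In NO_AG, 570 and 393 of them had a Trdc UMI, and 86.8% and 86.0% of these had a UMI of Trdv4, a delta segment found in some gamma-delta T cells of the skin. AG had 231 and 146 such Trdc-positive cells and AG_CPI had 13 and 25. A dv-named segment was found in 6.84% and 7.38% of the NO_AG cells, 2.60% and 3.42% in AG, and 0% and 8.0% in AG_CPI. Both NO_AG mice were above both AG mice, AG_CPI spanned the other groups, and 0 of 13 cells leaves the share in AG_CPI 1 poorly bounded. The leading dv-named segment differed between the mice of NO_AG: Trav13-4-dv7 was found in 12 cells of NO_AG 1 and 1 of NO_AG 2, and Trav15-2-dv6-2 in 5 and 21.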
